A study of Homo sapiens with 15 samples.

Results

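The genes described here encode the chaperones of the endoplasmic reticulum (ER), the sensors of the unfolded protein response and the machinery that folds, imports and degrades ER proteins. They were taken by name from a list of 39 genes, and 37 of them had at least 1 TPM (a transcript abundance scaled for gene length and library size) in at least 3 of 15 libraries, out of 12950 genes that passed this filter and 63241 in the deposited table. The list held 4 sensor genes, 10 chaperones and cochaperones, 3 genes of the lectin cycle, 8 of oxidative folding, 3 of the translocon and 11 of ER-associated degradation. The 4 sensor genes are the sensors ATF6, ERN1 and EIF2AK3 and the downstream factor XBP1, which is not itself a sensor. ERO1B, an ER oxidase, reached at most 1.41 TPM and passed 1 TPM in 1 library, and DERL3, a degradation channel gene, reached at most 0.0800 TPM, so both were left out of the tests.

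RNA was sequenced from cultures labelled HepG2, a human hepatoma line that the labels also call hepatocytes, in 5 groups of 3 biological replicates. FFA cultures received 500 µM free fatty acids, which serve as a model of a fat-loaded cell. FCL, FCM and FCH cultures received the same fatty acids together with C3R (cyanidin-3-rutinoside, an anthocyanin) at 25, 50 and 100 µM, and NC was the blank control without either. The study asked what C3R changes in fat-loaded cells, so FFA was set against NC and each C3R group against FFA. The labels do not say whether replicates were grown on separate days, so p-values describe the spread among these 15 libraries only.

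Proteins destined for secretion or for membranes enter the ER through the SEC61 channel and fold there with the help of the Hsp70 chaperone BiP (HSPA5), the Hsp90 chaperone GRP94 (HSP90B1), lectins and disulfide isomerases. When unfolded proteins build up, the sensors IRE1 (ERN1), PERK (EIF2AK3) and ATF6 are activated. IRE1 splices the XBP1 messenger RNA and ATF6 is cut into a transcription factor, and both products switch on chaperone and degradation genes, while PERK slows translation and favours the factor ATF4. In hepatocytes this response is linked to secretory load and to lipid overload. TPM measure the total message of a gene and do not show splicing, cleavage or phosphorylation of the sensors.

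ATF6 and XBP1 are known to act through an ER stress response element, ERSE (CCAAT and CCACG with 9 free bases between them), or its variant ERSE-II (ATTGG and CCACG with 1 free base between them), in the promoters of their targets. Both were searched on both strands, from 250 bases before to 50 bases after each annotated start, in the RefSeq promoters of build GRCh38.p14. Of the 39 listed genes 36 had such a window. An ERSE lay in 8 of these 36 genes and an ERSE-II in 3, together 11 of 36, against 25, 19 and 44 of the 27305 genes in the RefSeq table (0.0916%, 0.0696% and 0.161%). The members with an ERSE were HSPA5, HSP90B1, XBP1, CALR, CANX, PDIA6, CRELD2 and ERO1B, and those with an ERSE-II were HERPUD1, HYOU1 and SDF2L1. The members are counted among the 27305 genes and were listed by name as genes of this response. The higher share among them is therefore a description and no test. These matches describe the letters in the windows and do not show that a factor binds there.

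The whole windows of HSPA5 and HSP90B1 are shown because these chaperones had the largest changes of the members between FCM and FFA, the elements of XBP1 and HERPUD1 because these genes rose in FFA, and those of CANX, CALR and SDF2L1 because they hold an element of the same kind and were called in no comparison. Capitals mark the ERSE or ERSE-II on either strand. HSPA5 is at chr9:125241294-125241593 on the minus strand, HSP90B1 at chr12:103930160-103930459 on the plus strand, XBP1 at chr22:28800588-28800636 on the minus strand and HERPUD1 at chr16:56932010-56932050 on the plus strand. CANX is at chr5:179698763-179698811, CALR at chr19:12938369-12938417 and SDF2L1 at chr22:21642099-21642139, all on the plus strand. All are written 5′ to 3′ on the gene's own strand.
HSPA5: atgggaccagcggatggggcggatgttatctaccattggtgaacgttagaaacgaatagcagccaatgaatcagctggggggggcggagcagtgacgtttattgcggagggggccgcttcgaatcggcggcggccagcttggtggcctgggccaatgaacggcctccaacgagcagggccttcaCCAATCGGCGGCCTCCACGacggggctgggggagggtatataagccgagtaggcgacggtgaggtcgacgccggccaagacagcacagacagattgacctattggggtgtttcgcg
HSP90B1: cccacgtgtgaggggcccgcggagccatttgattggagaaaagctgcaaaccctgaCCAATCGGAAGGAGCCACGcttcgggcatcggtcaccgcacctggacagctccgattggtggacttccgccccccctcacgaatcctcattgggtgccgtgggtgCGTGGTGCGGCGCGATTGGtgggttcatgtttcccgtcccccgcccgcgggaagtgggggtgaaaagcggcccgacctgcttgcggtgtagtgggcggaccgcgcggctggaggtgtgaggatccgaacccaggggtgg
XBP1: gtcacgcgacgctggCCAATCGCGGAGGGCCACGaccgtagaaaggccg
HERPUD1: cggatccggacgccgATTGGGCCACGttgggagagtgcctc
CANX: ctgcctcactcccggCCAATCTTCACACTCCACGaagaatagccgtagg
CALR: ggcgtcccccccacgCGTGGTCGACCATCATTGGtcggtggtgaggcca
SDF2L1: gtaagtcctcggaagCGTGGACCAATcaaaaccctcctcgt
HSP90B1 carried 2 elements, in opposite orientation. HYOU1 also carried 2, and there the first overlapped the core of a further element, UPRE (TGACGTGG), which XBP1 is known to bind. That core occurred in 253 of the 27305 genes (0.927%) and in 4 members, HYOU1, DNAJC10, TXNDC5 and TXNDC11. The composite element of ATF4 (TGATGNAA) occurred in 1217 genes (4.46%) and in 1 member, HERPUD1.

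Several features of the libraries bear on all results. The markers went against the hepatocyte label: of 10 hepatocyte markers only APOA1 (6.18 to 14.7 TPM), TF (2.71 to 6.07) and SERPINA1 (6.95 to 14.2) reached 1 TPM in all 15 libraries, AFP and TTR were listed at 0 in 12 libraries each, and ALB reached at most 1.67 TPM, APOB 0.0900 and HNF4A 0.640. Of 6 cholangiocyte markers, the keratin KRT7 stood at 1626 to 2781 TPM, while KRT19 reached at most 1.60, SPP1 3.84, SOX9 0.380, EPCAM 0.40 and CFTR 0.0400. Of 9 stellate cell markers, COL1A1 stood at 30.8 to 62.8 TPM, ACTA2 at 7.97 to 15.8, DES at 2.11 to 4.83 and COL3A1 at 1.80 to 4.52. PDGFRB reached 1 TPM in 11 libraries and RGS5 in 3, while COL1A2 reached at most 0.380 and DCN 0.910. CD68 stood at 52.8 to 254 TPM, while the leukocyte markers CD3E and MARCO were listed at 0 in all 15 libraries and PTPRC in 14, the stellate marker LRAT was listed at 0 in all, and the 6 endothelial markers summed to at most 0.940 TPM. CD68 was higher in FFA than in NC by 1.61 on the log2 scale (adjusted p = 2.89e-04 by limma), and the leukocyte list summed to 143 to 211 TPM in FFA, 134 to 259 in the C3R groups and 54.5 to 63.4 in NC. The part of other cell types in the results was not tested, and a smaller share of a cell type cannot be told apart from less RNA per cell. Genes of the mitochondrial genome held 7.33% to 10.3% of TPM in FFA, 8.66% to 11.6% in FCL, 6.03% to 10.2% in FCM, 9.29% to 10.8% in FCH and 10.8% to 12.0% in NC, so that FFA lay below NC. The lowest shares were those of FCM replicate 3 and, at 7.33%, FFA replicate 3, and their part in the results was not tested. FCM replicate 3 stood apart on the first principal component (47.9, against -2.22 and -0.228 in the other FCM libraries). Libraries also differed in how their values followed GC content. Across genes, deviations from the mean of all libraries had Spearman correlations with GC content of -0.413 to -0.209 in FFA, -0.266 to 0.408 in FCL, 0.300 to 0.609 in FCM, 0.0494 to 0.339 in FCH and -0.512 to -0.0301 in NC. The deposited values of FCH replicate 3 had been pulled towards the other FCH libraries by a batch adjustment, which kept 41.6% of its deviations and makes the spread in FCH too small. In the adjusted genes it also shifted all other libraries by a common offset per gene. Sequencing depth is not given by TPM and is unknown.

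The members together held 0.493% to 0.653% of all TPM in a library, with the highest share in FFA replicate 3 and the lowest in FCH replicate 1. The most abundant members per unit of length were these. SEC61G, a small subunit of the import channel, had 401 to 1656 TPM, the lectin chaperone CALR 895 to 1431 and the disulfide isomerase P4HB 631 to 1052. At the other end, the cochaperones DNAJC3 and DNAJC10, the mannosidase-like EDEM3 and the chaperone DNAJB9 had low levels and stood under 1 TPM in 4, 5, 4 and 2 of the 15 libraries. Near-identical copies took little of the signal, since the annotated pseudogenes of HSPA5, HSP90B1, PDIA3, XBP1 and SEC61G reached at most 0.340 TPM.

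**Figure D1:**
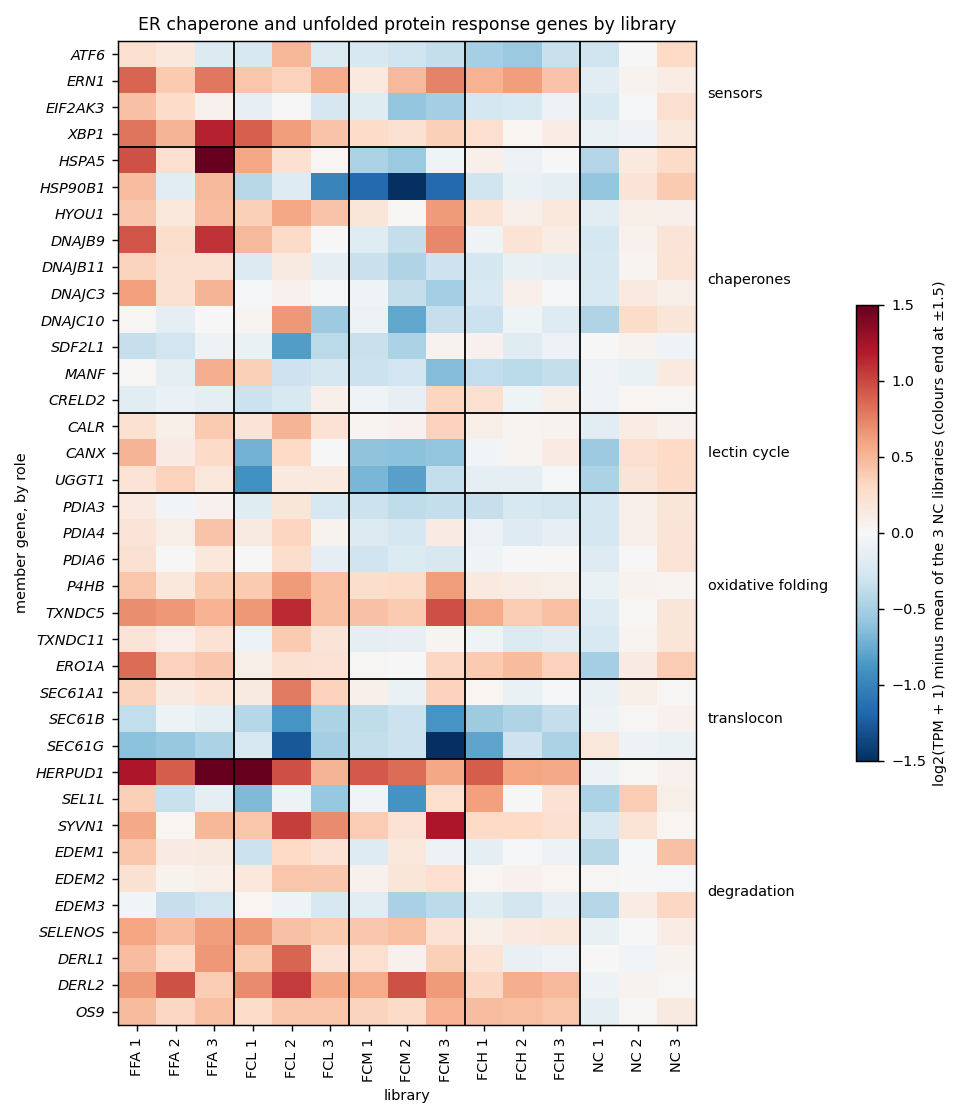
Change of the 37 tested members (rows, by role) in each of the 15 libraries (columns), as log2(TPM + 1) minus the mean of the 3 NC libraries, with colours that end at ±1.5. HERPUD1 is high in all FFA and C3R libraries, HSPA5 is highest in FFA replicate 3, and HSP90B1 is lowest in the 3 FCM libraries.

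Tests were made on log2(TPM + 1) with limma over all 15 libraries, with the threshold for a call set at 0.05 after adjustment over all 12950 genes. This scale understates the changes of genes with low TPM. Of the 37 tested members 13 were called in at least 1 of 9 comparisons and 24 in none.

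In FFA against NC calls were found among 2 of 4 sensor genes (the sensor ERN1 and the downstream factor XBP1), 4 of 10 degradation genes and 1 of 7 genes of oxidative folding. Of the 37 members 7 rose and none fell: ERN1, XBP1, TXNDC5, HERPUD1, SELENOS, DERL2 and OS9. Among all tested genes 5.47% were called higher and 1.91% lower. The median log2 change of the members was 0.26, with 30 above 0 and 7 below, against a median of 0.06 over all tested genes. The values of 15 members lay wholly above NC and of 4 wholly below, while 19.7% and 9.95% of all genes did so.

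Of the 4 sensor genes 2 rose, the sensor ERN1 and the downstream factor XBP1. XBP1, whose message IRE1 splices, had 171, 139 and 218 TPM in FFA libraries, against 90.6, 93.6 and 109 TPM in NC libraries. The 3 FFA libraries lay above the 3 NC libraries, with FFA replicate 3 highest. The log2 change was 0.83 (SE 0.15, adjusted p = 0.00403 by limma), and XBP1 was called under all 26 alternative settings. ERN1, which encodes IRE1 itself, had 3.11, 1.93 and 2.86 TPM in FFA libraries, against 1.00, 1.32 and 1.41 TPM in NC libraries. Its groups did not overlap either, although its level was low, and the change was 0.68 (SE 0.19, adjusted p = 0.0387 by limma). ERN1 was no longer called without any 1 of NC replicates 1 to 3, FFA replicates 1 or 3 or FCH replicates 1 to 3, with an adjusted p of up to 0.172 over all alternatives. EIF2AK3 had 3.37, 2.89 and 2.35 TPM in FFA libraries and 1.75, 2.18 and 2.79 in NC libraries, and ATF6 had 9.98, 9.35 and 7.03 in FFA libraries and 6.54, 8.30 and 10.4 in NC libraries. For both genes the groups overlapped and the changes of 0.26 and 0.06 did not pass the test.

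The genes of ER-associated degradation, which moves misfolded proteins back to the cytosol, had 4 of 10 tested members higher. HERPUD1, a membrane protein that organises the degradation complex, had 109, 87.9 and 205 TPM in FFA libraries, against 44.0, 46.9 and 48.7 TPM in NC libraries. All FFA values were above all NC values, and FFA replicate 3 was far above the other FFA libraries. Its change of 1.41 (SE 0.27, adjusted p = 0.00459 by limma) was the largest among the 37 members and was called under all 26 alternatives. SELENOS, a selenoprotein of the same complex, had 63.9, 58.3 and 65.5 TPM in FFA libraries and 38.8, 42.2 and 45.4 in NC libraries. DERL2, a channel protein, had 20.0, 25.2 and 16.5 in FFA libraries and 11.8, 13.0 and 12.7 in NC libraries. OS9, a lectin that hands glycoproteins to the complex, had 195, 175 and 192 in FFA libraries and 127, 142 and 154 in NC libraries. In all of these genes the FFA libraries lay above the NC libraries, and the log2 changes were 0.56, 0.66 and 0.41 (adjusted p = 0.00531, 0.0261 and 0.0226 by limma). SELENOS was not called with median-of-ratios scaling or quantile normalization, nor DERL2 with quantile normalization. DERL1 was also wholly above NC but was not called (28.5 ± 3.77 in FFA and 20.3 ± 0.658 TPM in NC, adjusted p = 0.104 by limma). The remaining members of this group, SEL1L, SYVN1 and EDEM1 to EDEM3, differed by -0.22 (EDEM3) to 0.36 (SYVN1) and were not called.

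Among the 10 chaperones and cochaperones none was called between FFA and NC. HSPA5, the central Hsp70 of the ER, had 331, 201 and 585 TPM in FFA libraries, against 126, 189 and 209 TPM in NC libraries. FFA replicate 3 was far above the rest and FFA replicate 2 lay within the NC range. The change of 0.99 (SE 0.29, 95% confidence interval 0.36 to 1.61) had an adjusted p of 0.0533 by limma, just over the threshold. It was called without FFA replicate 2 and without FCM replicate 3, and was 0.59 (adjusted p = 0.235 by limma) without FFA replicate 3. HSP90B1, the Hsp90 of the ER, had 124, 79.7 and 125 TPM in FFA libraries and 59.3, 102 and 117 in NC libraries, which overlapped. The cochaperones DNAJB9, DNAJB11 and DNAJC3 and the chaperone HYOU1 lay wholly above NC at changes of 0.76, 0.26, 0.45 and 0.34 without passing the test. SDF2L1 and CRELD2 lay wholly below NC, at -0.24 and -0.13, also not called. In their values the chaperones moved in both directions.

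Of the 7 tested genes of oxidative folding 1 rose. TXNDC5, a disulfide isomerase, had 269.8, 262 and 239 TPM in FFA libraries, against 144, 167 and 188 TPM in NC libraries, so that the groups did not overlap. Its change was 0.63 (SE 0.17, adjusted p = 0.0386 by limma). The other isomerases PDIA3, PDIA4, PDIA6, P4HB and TXNDC11 and the oxidase ERO1A had changes of 0.06 (PDIA3) to 0.53 (ERO1A), all positive and none called. In the lectin cycle, which holds glycoproteins until they are folded, CALR, CANX and UGGT1 changed by 0.23, 0.31 and 0.24 with overlapping groups and no call. In the import channel SEC61B and SEC61G lay wholly below NC (-0.20 and -0.55) and SEC61A1 wholly above (0.23), and none was called.

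The count of 7 depended on single libraries. It was 3 without NC replicate 1, without NC replicate 2 or without FFA replicate 1, and each time XBP1, HERPUD1 and SELENOS were kept. It was 4 without FFA replicate 3, where DERL2 was kept as well, and 5 to 10 without any other single library, with ERN1 and TXNDC5 lost without any of FCH replicates 1 to 3. TXNDC5 also lost its call without FFA replicate 2, and DERL2 without NC replicate 3 or FFA replicate 2.

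**Figure D2:**
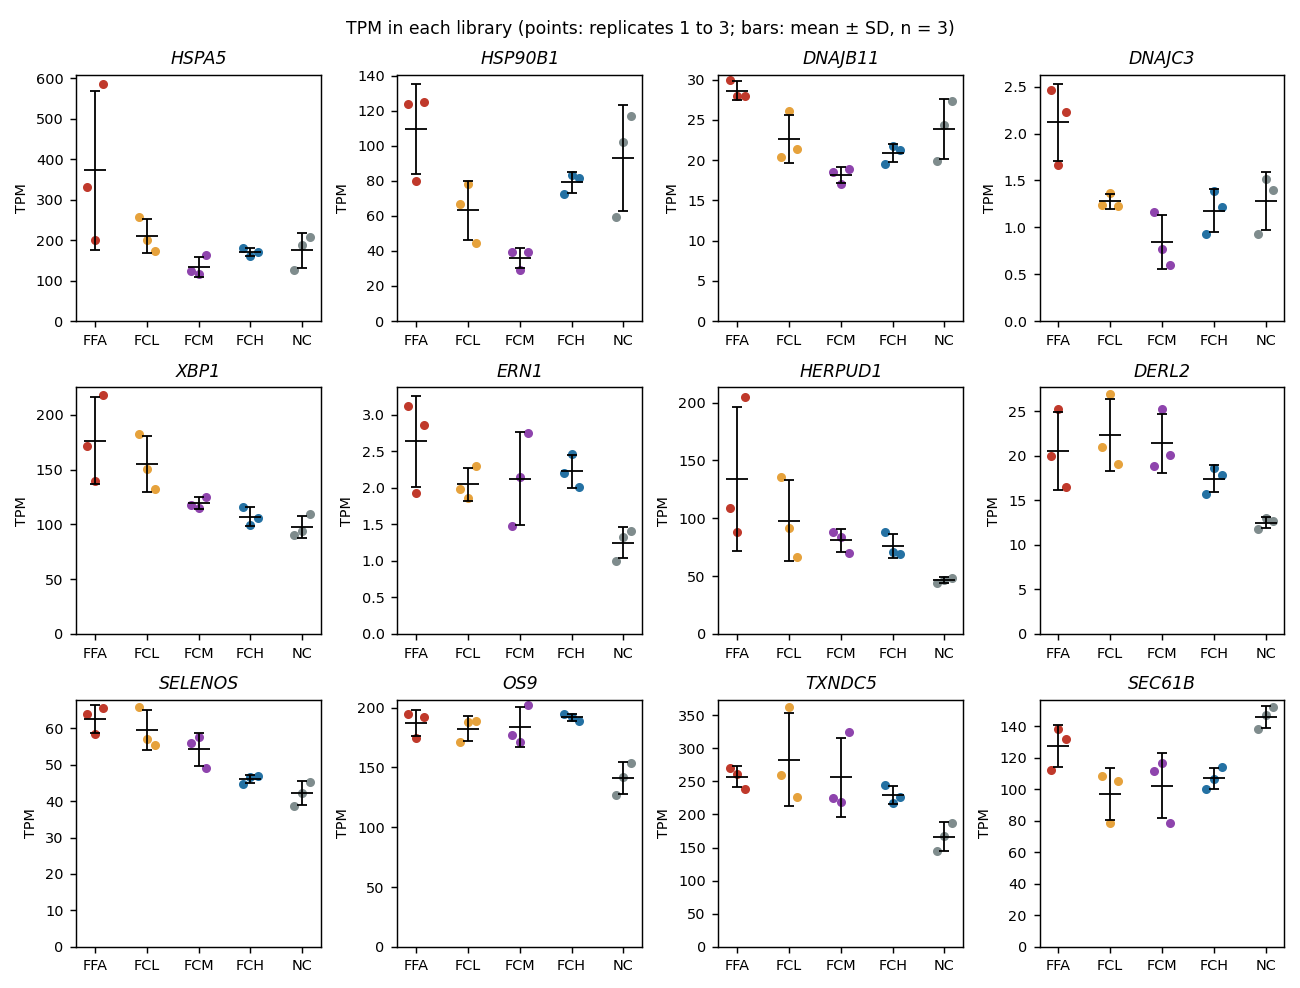
TPM of 12 members in each library, with FFA, FCL, FCM, FCH and NC from left to right, points for the replicates and bars for the mean ± SD (n = 3). HSP90B1, HSPA5, DNAJB11 and DNAJC3 have their lowest mean in FCM, while DERL2, OS9 and TXNDC5 stay above NC in all 4 groups that received fatty acids.

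At 50 µM C3R 4 of the 10 chaperones and cochaperones were lower than with fatty acids alone. Of the 37 members none rose and 4 fell in FCM against FFA, namely HSPA5, HSP90B1, DNAJB11 and DNAJC3, all of them chaperones or cochaperones. Among all tested genes 0.0695% were called higher and 1.83% lower. The median log2 change of the members was -0.29, with 5 above 0 and 32 below, and that of all genes was -0.07. No member lay wholly above FFA and 15 lay wholly below, against 4.53% and 19.4% of all genes. With median-of-ratios scaling 193 genes were called higher and 607 lower and with quantile normalization 162 and 359, against 9 and 237 as reported, and the members called lower numbered 7 and 4.

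HSP90B1 (ENSG00000166598) had 39.2, 29.3 and 39.2 TPM in FCM libraries, against 124, 79.7 and 125 TPM in FFA libraries. All FCM values were far below the lowest FFA value. The log2 change was -1.57 (SE 0.25, adjusted p = 0.0146 by limma). HSPA5 (ENSG00000044574) had 123, 115 and 163 TPM in FCM libraries, against 331, 201 and 585 TPM in FFA libraries. The groups did not overlap, and FFA replicate 3 was far above the other libraries. The change was -1.35 (SE 0.29, adjusted p = 0.0322 by limma), and -0.96 without that library. DNAJB11, an Hsp40 partner of BiP, had 18.6, 17.1 and 18.9 TPM in FCM libraries, against 30.0, 27.9 and 28.0 TPM in FFA libraries. Both groups were tight and far apart, with a change of -0.63 (SE 0.13, adjusted p = 0.0298 by limma). DNAJC3, another BiP partner that also restrains PERK, had 1.16, 0.773 and 0.593 TPM in FCM libraries, against 2.46, 1.66 and 2.23 TPM in FFA libraries. Its groups did not overlap, but its level was near 1 TPM, and the change was -0.76 (SE 0.18, adjusted p = 0.044 by limma).

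These calls depended on single libraries. None of the 4 was called without FFA replicate 1, without FFA replicate 3 or without FCM replicate 2, and only HSP90B1 was called without FCM replicate 1, FCM replicate 3 or FCH replicate 3. DNAJC3 also lost its call without NC replicate 2, FCL replicate 3 or FCH replicates 1 or 2. Without FCL replicate 2 there were 7 calls, all 4 and CANX, EIF2AK3 and PDIA3. No sign changed under any alternative, and HSP90B1 stayed between -1.78 and -1.16 in all 26.

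Other chaperone and lectin genes were lower in FCM in their values without passing the test. CANX, the membrane lectin, had 52.1, 51.3 and 52.2 TPM in FCM libraries, against 113, 86.9 and 96.9 TPM in FFA libraries, and UGGT1, which marks misfolded glycoproteins for another round, had 3.23, 2.87 and 4.32 in FCM libraries and 6.80, 7.65 and 6.63 in FFA libraries. Both sets of FCM values lay wholly below FFA, with changes of -0.91 and -0.85 (adjusted p = 0.0551 and 0.0932 by limma). CALR, the soluble lectin of the same cycle, had 1125 ± 134 TPM in FCM and 1191 ± 129 in FFA (SD, n = 3 each), a change of -0.08 (95% confidence interval -0.34 to 0.17). MANF, a small ER protein that is also secreted, and the isomerases PDIA3 and PDIA6 lay wholly below FFA at -0.56, -0.41 and -0.38. HYOU1, a nucleotide exchange chaperone of BiP, changed by -0.07 and SDF2L1 by -0.01, with intervals of -0.37 to 0.24 and -0.37 to 0.35.

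No sensor or degradation gene passed the test between FCM and FFA. EIF2AK3 had 1.83, 1.13 and 1.26 TPM in FCM libraries, against 3.37, 2.89 and 2.35 TPM in FFA libraries, and XBP1 118, 114 and 125 in FCM libraries, against 171, 139 and 218 in FFA libraries. Both lay wholly below FFA, with changes of -0.69 and -0.54 (adjusted p = 0.0591 and 0.0731 by limma). ATF6 had 6.87, 6.54 and 6.26 TPM in FCM libraries, below all FFA values, and ERN1 1.47, 2.14 and 2.74, which overlapped FFA, at changes of -0.36 and -0.23. DERL2, OS9 and TXNDC5 changed by 0.06, -0.03 and -0.03, with intervals of -0.29 to 0.42, -0.25 to 0.19 and -0.39 to 0.34. HERPUD1 had 88.5, 83.9 and 70.0 TPM in FCM libraries, a change of -0.63 (adjusted p = 0.212 by limma), and FCM replicate 1 lay above the lowest FFA library. Without FFA replicate 3 that change was -0.28.

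**Figure D3:**
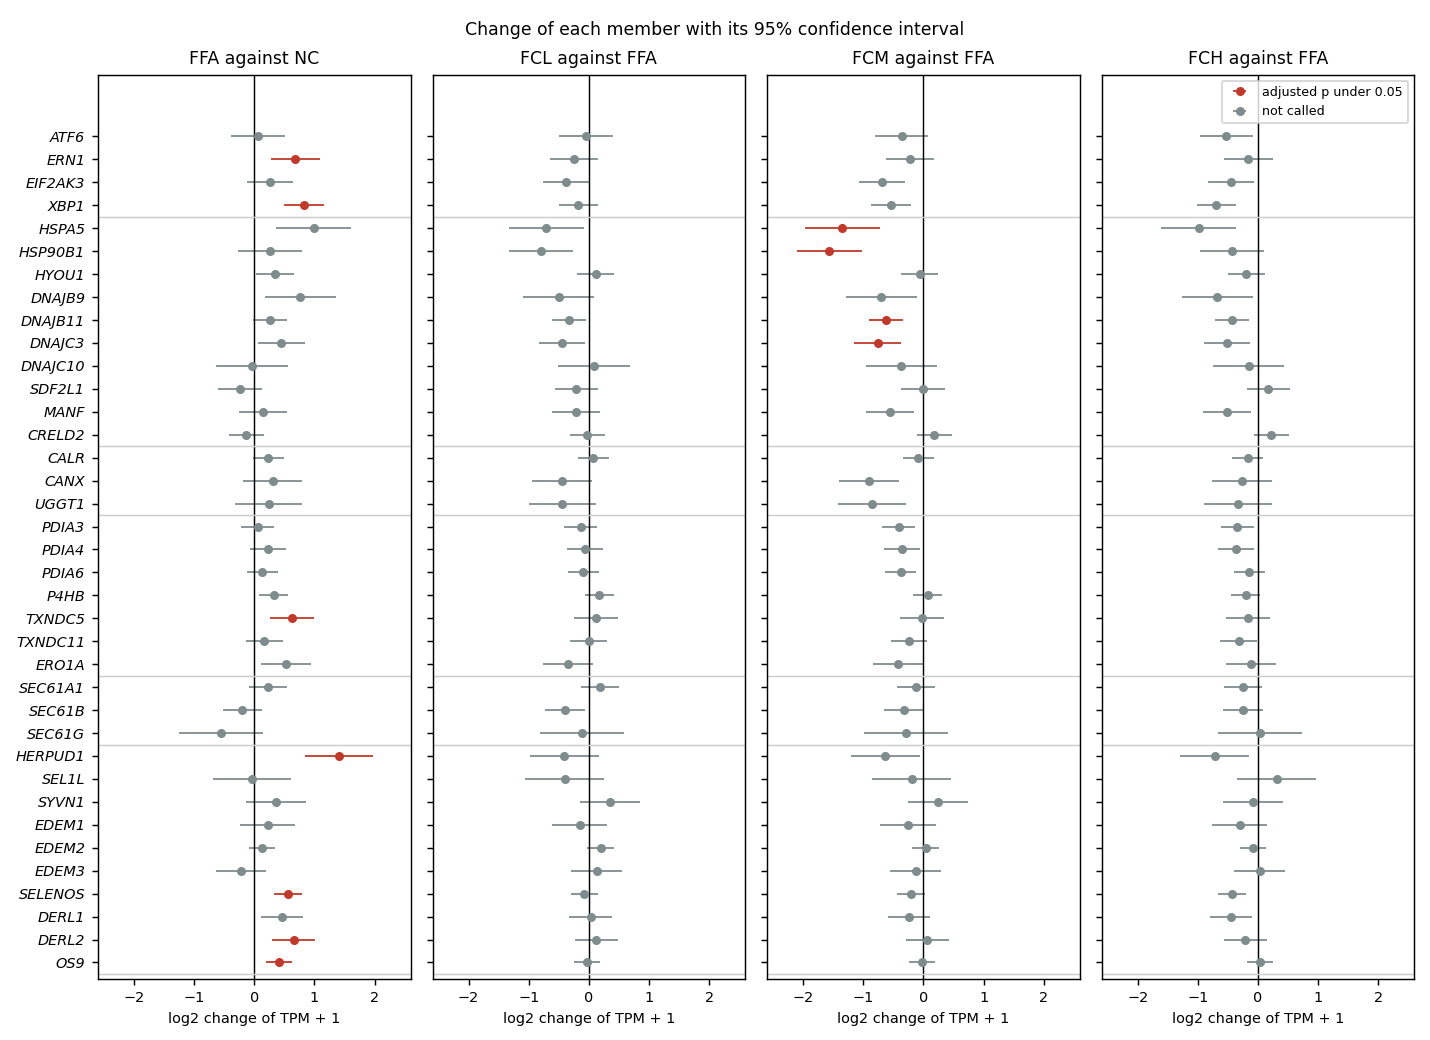
Log2 change of each tested member with its 95% confidence interval for FFA against NC and for FCL, FCM and FCH against FFA, with called members in red. The 7 calls of FFA against NC lie right of 0 among sensor genes (ERN1 and the downstream factor XBP1), isomerases and degradation genes, and the 4 calls of FCM against FFA lie left of 0 among the chaperones.

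At 25 µM C3R no member was called against FFA. Among all genes 0% were called higher and 0.00772% lower, 1 gene in all. At an unadjusted p under 0.05 there were 6 members, EIF2AK3, HSPA5, HSP90B1, DNAJB11, DNAJC3 and SEC61B, all lower in FCL, and 5.15% of all genes. HSP90B1 had 66.8, 77.9 and 44.6 TPM in FCL libraries, DNAJB11 20.4, 26.1 and 21.4 and DNAJC3 1.24, 1.36 and 1.22, each wholly below FFA. Their changes against FFA were -0.79, -0.33 and -0.45 (adjusted p = 0.901 each by limma). HSPA5 had 256, 200.2 and 174 TPM in FCL libraries, which overlapped FFA, and a change of -0.71, or -0.31 without FFA replicate 3. The median of the members was -0.12, and that of all genes -0.01. No member lay wholly above FFA and 7 lay wholly below (3.37% and 4.36% of all genes). No alternative setting called a member in this comparison.

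At 100 µM C3R no member was called against FFA either, and 0.108% of all genes were called higher and 0.0849% lower. At an unadjusted p under 0.05 there were 14 members, all lower in FCH, and 15% of all genes. XBP1 had 116, 99.2 and 106 TPM in FCH libraries, against 171, 139 and 218 in FFA libraries, and SELENOS 44.8, 46.7 and 46.9 in FCH libraries, against 63.9, 58.3 and 65.5 in FFA libraries. Neither gene overlapped between the groups, and the changes were -0.69 and -0.43 (adjusted p = 0.075 and 0.0982 by limma). Both were called without FCM replicate 3, and XBP1 and HSPA5 without FFA replicate 2. HSPA5 had 180.2, 160.4 and 170.4 TPM in FCH libraries, all below the lowest FFA value, with a change of -0.99, or -0.60 without FFA replicate 3. HSP90B1 had 72.5, 83.3 and 81.3, which overlapped FFA, with a change of -0.44 (95% confidence interval -0.97 to 0.10). DNAJB11 had 19.6, 21.7 and 21.2 and DNAJC3 0.933, 1.38 and 1.22 TPM in FCH libraries, wholly below FFA at -0.44 and -0.51. The median of the members was -0.26, and that of all genes -0.07. Wholly above FFA lay 1 member, CRELD2, and wholly below lay 18 (11% and 22.4% of all genes). With the batch adjustment undone, FCH replicate 3 had 88.7 TPM of HSP90B1 in place of 81.3, 182 of HSPA5 in place of 170.4 and 105 of XBP1 in place of 106. ATF6, EIF2AK3 and CANX then overlapped FFA, so that 15 members lay wholly below it.

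The steps between the C3R doses gave no called member. In FCM against FCL 0.00772% of all genes were called higher and 0% lower, and at an unadjusted p under 0.05 there were 6 members, among them HSPA5 (-0.65), HSP90B1 (-0.77) and XBP1 (-0.36), and 8.31% of all genes. No member lay wholly above FCL and 8 lay wholly below (1.72% and 7.83% of all genes), and the median change was -0.22 for the members and -0.08 for all genes. In FCH against FCM 0.0154% of all genes were called higher and 0% lower, and 3 members had an unadjusted p under 0.05, with 9.97% of all genes. HSP90B1 was higher in all FCH libraries than in all FCM libraries, at 1.13 (SE 0.25, 95% confidence interval 0.59 to 1.66, adjusted p = 0.108 by limma). It was called with median-of-ratios scaling, with GC and length trends removed and without NC replicate 1. Wholly above FCM lay 6 members and wholly below 4 (14.6% and 7.38% of all genes), or 5 and 3 with the batch adjustment of FCH replicate 3 undone, and the medians were 0.04 for the members and 0.02 for all genes. HSP90B1 thus had its lowest values at the middle dose, with group means of 109 ± 25.8, 63.1 ± 17.0, 35.9 ± 5.71 and 79.0 ± 5.78 TPM in FFA, FCL, FCM and FCH and 92.9 ± 30.0 in NC (SD, n = 3 each).

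Each C3R group was also set against the blank control. These comparisons share the NC libraries with each other and with that of FFA, so their values are given side by side. In FCL 7 members rose (XBP1, P4HB, TXNDC5, HERPUD1, SELENOS, DERL2 and OS9) and 1 fell (SEC61B), in FCM 5 rose (P4HB, TXNDC5, SELENOS, DERL2 and OS9) and 2 fell (HSP90B1 and SEC61B), and in FCH 1 rose (OS9) and none fell. The shares of all genes called higher and lower were 6.51% and 2.56% in FCL, 6.34% and 6.7% in FCM, and 3.02% and 1.98% in FCH. The medians of the members were 0.16, -0.07 and -0.0030, and those of all genes 0.04, -0.03 and -0.0028. Wholly above NC lay 14, 11 and 8 members in FCL, FCM and FCH, and wholly below 3, 8 and 4, against 16.7%, 14.5% and 19.1% of all genes above and 8.03%, 16% and 15.6% below. With the batch adjustment of FCH replicate 3 undone, 7 members lay wholly above NC in FCH and 3 wholly below, since P4HB and ATF6 then overlapped.

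The degradation genes OS9 and DERL2 and the isomerase TXNDC5 stayed above NC in every library of every dose. OS9 had 171, 188 and 189 TPM in FCL, 177, 171 and 202 in FCM and 195, 192 and 189 in FCH libraries, all above 127, 142 and 154 in NC. Its changes against NC were 0.41 in FFA, 0.37 in FCL, 0.38 in FCM and 0.45 in FCH, and it was the 1 member called higher in all 4 groups, where 255 of the 12950 genes were so called. DERL2 had 21.0, 26.9 and 19.1 TPM in FCL, 18.9, 25.2 and 20.1 in FCM and 15.8, 18.6 and 17.9 in FCH, at 0.78, 0.72 and 0.45 against NC. TXNDC5 had 260.3, 362 and 227 TPM in FCL, 226, 218 and 325 in FCM and 245, 217 and 227 in FCH, at 0.74, 0.60 and 0.47 against NC. For both genes all values of the C3R groups lay above NC, and the FCH changes were not called (adjusted p = 0.142 and 0.137 by limma). SELENOS had 65.8, 57.2 and 55.6 TPM in FCL, 56.1, 57.6 and 49.1 in FCM and 44.8, 46.7 and 46.9 in FCH, at 0.49, 0.36 and 0.13, so that only FCH overlapped NC. OS9, DERL2, TXNDC5 and SELENOS were the 4 members called higher in FFA, FCL and FCM alike, as were 437 of all genes.

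The changes of XBP1, HERPUD1 and P4HB against NC were smaller at each higher dose, as were those of DERL2, TXNDC5 and SELENOS. XBP1 had 182, 151 and 132 TPM in FCL, 118, 114 and 125 in FCM and 116, 99.2 and 106 in FCH libraries, with changes against NC of 0.65, 0.29 and 0.13. FCL and FCM lay above NC and FCH overlapped it. HERPUD1 had 136, 91.8 and 66.5 TPM in FCL, 88.5, 83.9 and 70.0 in FCM and 88.2, 70.7 and 69.2 in FCH, all above NC, at 1.00, 0.78 and 0.69 (adjusted p = 0.0297, 0.067 and 0.157 by limma). P4HB, a disulfide isomerase that also serves collagen hydroxylation, had 889, 1052 and 924 TPM in FCL, 811, 820.5 and 1046 in FCM and 749, 729 and 718 in FCH libraries, all above 631, 704 and 695 in NC as deposited, at 0.49, 0.39 and 0.11. With the adjustment undone, FCH replicate 3 had 698 TPM of P4HB and overlapped NC. ERN1 had 1.98, 1.85 and 2.29 TPM in FCL, 1.47, 2.14 and 2.74 in FCM and 2.20, 2.46 and 2.01 in FCH, above NC in every library, at 0.44, 0.46 and 0.52 with no call.

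In the opposite direction, SEC61B, the beta subunit of the import channel, had 108, 78.2 and 105 TPM in FCL, 111, 117 and 78.5 in FCM and 100.4, 107 and 114 in FCH libraries, against 138, 147 and 152 TPM in NC libraries. All C3R values lay below NC, and the changes were -0.59, -0.53 and -0.45 (adjusted p = 0.0263, 0.0366 and 0.113 by limma). HSP90B1 had a change of -1.30 in FCM against NC (SE 0.25, adjusted p = 0.0045 by limma), a call that held under all 26 alternatives, and its FCL and FCH changes were -0.53 and -0.18. The call of SELENOS in FCM ended without any NC or FFA replicate, FCM replicates 1 or 2 or any FCH replicate.

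The counts against NC moved with single libraries. In FCL 1 member was called without NC replicate 1 (DERL2), 4 without NC replicate 2, 3 without FCL replicate 2 and 13 without FCM replicate 3. The calls of OS9 also ended there without FCL replicate 3 or FCH replicate 3, and those of HERPUD1 and SEC61B without NC replicate 3, with HERPUD1 lost without FCL replicate 1 as well. In FCM 2 members were called without NC replicate 2 (HSP90B1 and DERL2), 3 without NC replicate 3, 3 without FCM replicate 3 and 4 without FCH replicate 2 or 3. The calls of OS9, P4HB and TXNDC5 also ended there without NC replicate 1, and that of P4HB without FCH replicate 1. In FCH none was called without NC replicate 1, NC replicate 2 or any 1 of the FCH replicates, and 2 were called without FCM replicate 3.

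The changes of FCM against FFA followed GC content across all genes. The Spearman correlation of log2 change with GC content over the 12485 genes with a GENCODE 29 transcript was 0.64 in FCM against FFA. It was 0.40 in FCL and 0.40 in FCH against FFA, and 0.03 in FFA against NC. These are descriptions across genes that are not independent. In 10 bins of equal size, the genes of lowest GC content had a median change of -0.48 in FCM against FFA and those of highest GC content 0.14. The median GC content of the member transcripts was 48.6%, that of all tested genes was 51.2%, and 24 of 37 members lay under it. HSP90B1 had 42.4%, HSPA5 46.0%, DNAJB11 43.2% and DNAJC3 40.6%. The middle 50% of genes lay between -0.69 and -0.30 in the lowest bin, -0.60 and -0.19 in the next and -0.52 and -0.11 in the one after. HSP90B1 and HSPA5 lay far below these ranges, and DNAJB11 and DNAJC3 lay near their lower ends. With each library's GC and length trends removed, the change of HSP90B1 in FCM against FFA was -1.16 (adjusted p = 0.0252 by limma), and it was the only member called. HSPA5, DNAJB11 and DNAJC3 then had changes of -1.08, -0.25 and -0.32 (adjusted p = 0.115, 0.12 and 0.357 by limma), and the median of the members was -0.11. In FFA against NC, 9 members were called after this step, all 7 together with P4HB and ERO1A.

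**Figure D4:**
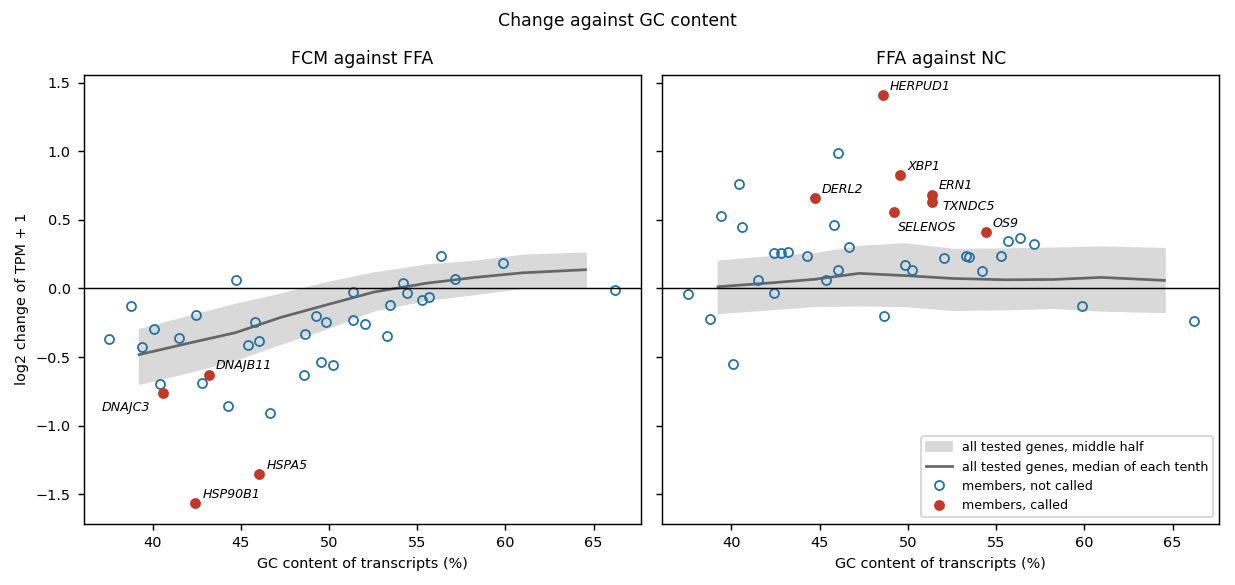
Log2 change of each tested member against the median GC content of its transcripts, for FCM against FFA (left) and FFA against NC (right), with called members in red, the median of all tested genes in each of 10 bins of GC content as a line and their middle 50% in gray. In FCM against FFA the line climbs to the right and HSP90B1 and HSPA5 lie far under it, while in FFA against NC the line is flat.

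Called members were found among those with and without an ERSE or ERSE-II. Of the 10 tested members with such an element 2 were higher in FFA than in NC (XBP1 and HERPUD1) and 2 lower in FCM than in FFA (HSPA5 and HSP90B1). Of the 25 tested members with a window but no element 5 were higher in FFA than in NC and 2 lower in FCM than in FFA. Median changes of the members with and without an element were 0.28 and 0.24 in FFA against NC and -0.46 and -0.26 in FCM against FFA. These are descriptions, and no test was made between the 2 sets.

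Genes of the neighbouring pathways were read from lists of other genes. These lists were chosen with earlier results of these data known, so the share called in a list is a description and no test of the list. Counts of the lists stand against the shares of all tested genes. These were 5.47% higher and 1.91% lower in FFA against NC and 0.0695% and 1.83% in FCM against FFA. Against NC they were 6.51% and 2.56% in FCL, 6.34% and 6.7% in FCM and 3.02% and 1.98% in FCH. At an unadjusted p under 0.05 by limma stood 2787 of the 12950 tested genes in FFA against NC. Against FFA the numbers were 667 in FCL, 2477 in FCM and 1946 in FCH. The PERK and ATF4 branch, which serves amino acid supply and recovery from stress, had 9 of 19 tested genes higher in FFA than in NC and none lower. ATF3 rose by 2.11 (139.6 ± 26.3 TPM in FFA and 31.4 ± 4.60 in NC), PPP1R15A by 1.49, GADD45A by 1.44 and TRIB3 by 0.86 (adjusted p = 1.58e-05, 1.54e-04, 5.53e-04 and 7.74e-04 by limma). PPP1R15A encodes the phosphatase subunit that reverses the translation block of PERK. The list's median change was 0.49. None of its genes was called between any C3R group and FFA (2, 2 and 4 at an unadjusted p under 0.05 in FCL, FCM and FCH), and 9, 9 and 7 of the 19 were higher in FCL, FCM and FCH than in NC. There ATF3 rose by 2.40, 2.05 and 2.42, PPP1R15A by 1.62, 1.47 and 1.47 and TRIB3 by 1.10, 0.99 and 0.76. The 4 groups with fatty acids shared 7 of the 19 genes as higher than NC.

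Among partners of the sensors and related regulators, 2 of 21 were higher in FFA than in NC, PPP1R15B at 1.23 and the ATF6-related factor CREB3L2 at 0.58, and 2 were lower in FCM than in FFA, CREB3L2 at -0.72 and the adaptor NCK1 at -1.02. Other ER folding genes had 1 of 32 higher in FFA than in NC (PDIA5, 0.42) and none called in FCM against FFA (5 at an unadjusted p under 0.05). Other genes of ER-associated degradation had none of 27 called by limma in either comparison. At an unadjusted p under 0.05 stood 1 and 9 of them, against 2787 and 2477 of all 12950 tested genes. Import and glycosylation genes had 1 of 24 higher (SRPRA, 0.62) and 1 lower (KRTCAP2, -0.71) in FFA than in NC, and 1 lower in FCM than in FFA (SEC62, -1.0). In FCM against NC, where 6.7% of all genes were called lower, 6 of these 24 fell, among them KRTCAP2 (-0.88), the signal peptidase subunit SPCS1 (-0.75) and the translocon-associated SSR3 (-0.67) and SSR1 (-0.78).

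Of 26 tested genes of vesicle transport between the ER and the Golgi 6 fell in FCM against FFA and none rose, where 1.83% of all genes were called lower. The list's median change was -0.40, and that of all genes was -0.07. In the lowest and the next bin of GC content all genes had medians of -0.48 and -0.39. The part of GC content or of single libraries in the changes of these pathway lists was not tested. TFG fell by 0.78 (36.7 ± 1.18 TPM in FCM and 63.9 ± 5.62 in FFA), the coat genes SEC24D and SEC24A by 0.90 and 0.82, and the cargo lectin LMAN1 by 1.13 (adjusted p = 0.0266, 0.0314, 0.0397 and 0.0413 by limma). In FFA against NC 2 rose, KDELR3 at 0.52 and SURF4 at 0.43, or 7.69% of the list, near the 5.47% of all genes. In FCL against NC 2 rose, SURF4 at 0.53 and KDELR1 at 0.40, or 7.69%, near the 6.51% of all genes. In FCM against NC 3 fell, TFG at -0.58, SEC24A at -0.62 and LMAN1 at -0.86, or 11.5%, where 6.7% of all genes were called lower. In FCL and FCH against FFA none of the genes in these pathway lists was called. Of the 26 transport genes 3 and 11 had an unadjusted p under 0.05 by limma there, as did 5.15% and 15% of all genes. Their median changes were -0.11 in FCL and -0.30 in FCH, and those of all genes -0.01 and -0.07. In FCL 20 of them lay below 0 and 6 above, and in FCH 25 below and 1 above.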

How the data were processed

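The deposited unit is TPM per Ensembl gene for 15 libraries. Per the labels, the authors selected poly(A) RNA, made stranded libraries, aligned with HiSat2 and estimated expression with RSEM; their versions, the annotation release and the strand setting were not given in the sources used here. The values carried a mean-only batch adjustment in 12775 of 63241 genes, with FCH replicate 3 treated as its own batch. In these genes the other libraries were shifted by a common offset per gene and FCH replicate 3 by another. Both offsets were recovered and undone as an alternative. Genes with at least 1 TPM in at least 3 libraries (12950) were tested as log2(TPM + 1) with limma 3.58.1 in R 4.3.3, 1 mean per group over all 15 libraries, a mean-variance trend and two-sided Benjamini-Hochberg p-values over all genes. The fit was tested on simulated data. The main fit did not pair libraries by replicate number, and whether same-numbered libraries were grown together is not known. Per-library values are given for the sensors, HSPA5, HSP90B1, HERPUD1 and every called member, and for other lists up to 4 called genes per comparison with the smallest p. CANX and UGGT1 were added after their values were seen. Members and lists were chosen with earlier results of these data known. GC content and length came from GENCODE 29 transcripts (96.4% of tested genes) and promoters from RefSeq.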

Additional observations from a re-analysis of the deposited data

How the results depend on the processing

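TPM give no depth, so counting error is unknown, and with 3 libraries a group single libraries moved most counts. Of the reported 7, 4, 8, 7 and 1 member calls (FFA against NC, FCM against FFA, and FCL, FCM and FCH against NC), XBP1 and HERPUD1 in FFA and HSP90B1 in FCM against NC were called under all 26 alternatives, and no called member changed sign. The cause was not tested where counts moved. Leaving out 1 library gave 3 to 10 calls in FFA against NC, 0 to 7 in FCM against FFA, 0 to 2 in FCH against FFA, 1 to 13 in FCL against NC, 2 to 10 in FCM against NC, 0 to 2 in FCH against NC and 0 to 1 in FCH against FCM, and members' medians of -0.056 to 0.26 in FCL against NC and -0.25 to 0.016 in FCM against NC, both lowest without NC replicate 1. With no filter there were 4 calls in FFA against NC, 0 in FCM against FFA, 5 in FCL against NC and 3 in FCM against NC. Fits on only the groups compared gave 0 in FCM against FFA, 4 in FCH against FFA, and 0, 2 and 7 in FCL, FCM and FCH against NC. Median-of-ratios scaling gave 7 in FCM against FFA, 2 in FCH against NC and 1 in FCH against FCM, and quantile normalization 11 in FCM against NC and 2 in FCH against NC. A minimum mean of 5 TPM gave 1 in FCH against FFA. With GC and length trends removed there were 1 in FCM against FFA, 4 in FCH against NC and 1 in FCH against FCM, with medians of -0.11 in FCM against FFA and -0.080 in FCM against FCL. A term for the libraries numbered 12 to 15 gave 1 in FCM against FFA, 13, 3 and 0 in FCL, FCM and FCH against NC and 1 in FCH against FCM, with medians of -0.43 in FCH against FFA, -0.21 in FCM against NC and -0.19 in FCH against NC. These libraries are FCM replicate 3 and all FCH libraries. The term was therefore set only by FCM replicate 3 against the other FCM libraries. All FCH values under it move with that 1 library and cannot be told apart from it. Leaving out FFA replicate 3 and FCM replicate 3 together, chosen after seeing the data, gave 0 in FCM against FFA, 4 in FCM against NC and 3 in FCH against NC, with a median of -0.21 in FCM against NC. Same-numbered libraries did not deviate together (correlations of -0.350 to 0.154 over 30 pairs), and the replicate block gave 1 call in FCM against FFA and 3 in FCM against NC. With the batch adjustment of FCH replicate 3 undone, the calls of ERN1 in FFA against NC, DNAJC3 in FCM against FFA and SELENOS in FCM against NC were lost.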

Other observations

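Cytosolic heat shock genes serve folding outside the ER. None of 16 tested was called by limma in FFA against NC or in FCL, FCM or FCH against FFA. At an unadjusted p under 0.05 stood 4, 0, 6 and 2 of them, against 2787, 667, 2477 and 1946 of all 12950 tested genes. In FCM against NC 6 of the 16 were lower and none higher, with a median change of -0.13 on the log2 scale, where 6.7% of all tested genes were called lower. HSP90AA1, the inducible cytosolic Hsp90, had 17.9 ± 4.01 TPM in FCM and 57.7 ± 18.2 in NC (SD, n = 3 each), a change of -1.61 (adjusted p = 0.00439 by limma). HSPA4, HSPH1 and HSP90AB1 fell by 0.83, 1.08 and 0.51. In FCL against NC 1 of the 16 was lower (HSP90AA1, -1.07), where 2.56% of all genes were called lower. In FCH against NC none was called, with 4 at an unadjusted p under 0.05, against 2616 of all 12950 genes. The part of GC content in these values was not tested.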
